A study of Mus musculus with 6 samples.

Results

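The enzymes described here interconvert, inactivate or reduce steroid hormones in the liver: Hsd3b2, Hsd3b3 and Hsd3b5 of the 3-beta-hydroxysteroid dehydrogenase family, Hsd17b2, Hsd17b6, Hsd11b1, the reductases Srd5a1, Akr1c6 and Akr1d1, and the cytochrome P450 Cyp17a1. They were taken by gene name, and every probe of each gene was used, which gave 10 genes of 37074 gene names and 15 probes of 56605 on the array. RNA from 6 livers was hybridised to Agilent 1-colour arrays, each array holding 1 liver. All mice were nude mice, an athymic strain without mature T cells. The control group received sterile PBS by injection, 10 times, every other day over 21 days. The sEV group received small extracellular vesicles from the human colorectal cancer cell line SW620, by tail vein on the same schedule, at 20 µg per injection. Each group had 5 mice, 3 livers per group were arrayed, and the labels used here give no age.

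The liver both makes use of steroid hormones and clears them. Hydroxysteroid dehydrogenases switch a hydroxyl group to a ketone or back and so turn a hormone on or off. Reductases of the A ring start the breakdown of hormones that carry a double bond there, and cytochrome P450 enzymes and sulfotransferases make the products more soluble. In mice the Hsd3b genes lie side by side on 1 chromosome, and Hsd3b4 and Hsd3b5 are known as ketosteroid reductases, while Hsd3b1, Hsd3b2, Hsd3b3 and Hsd3b6 encode dehydrogenase-isomerases. Several of these genes are known to differ between male and female mouse liver under the control of growth hormone. In these livers Xist was well above background on 6 of 6 arrays, and of the Y chromosome Uty, Ddx3y and Eif2s3y were so on 0.

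Because the Hsd3b genes are close copies, the sequences of the probes were compared with those of probes for other genes. The probe for Hsd3b5 shares an exact run of 23 bases with the probe for its neighbour Hsd3b4, a gene outside the 10 members. The matching stretches are shown because both probes changed, with the shared run in capitals:
Hsd3b5, probe bases 31 to 60: ttgATACCTTTATGAAGCTCAAAGAAcaat
Hsd3b4, probe bases 24 to 53: cccATACCTTTATGAAGCTCAAAGAAaaga

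No other probe of the 10 genes shared a run of more than 15 bases with a probe of another gene name, and 5 of the 15 had any such run of at least 14. Probes were compared only with other probes, so whether a probe binds RNA of another Hsd3b gene was not tested. The Srd5a1 probes gave different results, while both Akr1d1 probes were higher by fitted value and neither passed over all probes. The first 30 bases of the probes of these 2 genes are printed to identify them. The Srd5a1 probe A_51_P420415 is the brightest of 3, A_52_P562612 was well above background on 0 arrays, and A_52_P577084 was designed on a separate cDNA:
A_51_P420415: agaggaatcttgtcttaacactatactcta
A_52_P562612: ctgaaagtttacatcgtgaaccacagttag
A_52_P577084: tggtatgaatctttcccaggaggtgttatg

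The pair of Akr1d1 probes, the brighter first, begins as follows:
A_66_P114758: agtgtgcccattcagcctttcatgtgcgtg
A_66_P113096: agtgaagacagctattgatgaggggtaccg

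The promoters were compared because Hsd3b5 changed while its neighbours Hsd3b2 and Hsd3b3 did not pass the test. RefSeq promoter entries (GRCm38.p6) were found for 8 of the 10 genes, all but Cyp17a1 and Hsd17b2, and the 250 bases before each start were used. For Hsd3b3 and Hsd3b4, which have a further entry, only the more upstream entry was aligned. Among the pairs of Hsd3b1 to Hsd3b6 compared in this way, the Hsd3b3 and Hsd3b5 windows had the longest local alignment, with 154 identical bases over 204 columns (75.5%). The longest shared run held 24 bases. It ended 129 bases before the start of Hsd3b5 and 81 bases before a start of Hsd3b3 that lies within that gene's RefSeq span, and it stands in capitals, on the minus strand:
Hsd3b5, chr3:98645661-98645690: gagGCAAACACCCACATAGGCTCACATgtt
Hsd3b3, chr3:98763207-98763236: aatGCAAACACCCACATAGGCTCACATatt

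The whole Hsd3b5 window, with the 5 runs of 8 or more bases that it shares with Hsd3b3 in capitals (60 bases in all), lies on the minus strand at chr3:98645535-98645784:
Hsd3b5: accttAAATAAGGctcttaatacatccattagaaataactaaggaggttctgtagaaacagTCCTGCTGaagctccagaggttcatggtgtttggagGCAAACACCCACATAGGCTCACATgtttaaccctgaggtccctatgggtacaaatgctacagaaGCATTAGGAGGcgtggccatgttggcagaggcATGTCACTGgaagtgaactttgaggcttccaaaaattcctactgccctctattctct

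These windows were searched on both strands for TTCNNNGAA, the letters of STAT sites, AGAACA, the repeated unit of glucocorticoid receptor sites, and TTGCNNAA, letters of C/EBP sites. Of 27025 promoters of the same length, 7.18%, 16.2% and 9.55% held them. The Hsd3b5 and Hsd3b3 windows held none of the 3 in these letters. Among the members, AGAACA stood once before Hsd3b2, 246 bases from its start. TTGCNNAA stood once in the Akr1d1 window, on the minus strand, so the capitals in the plus-strand stretch below are its reverse complement. This match lies directly beside the start used there. That start lies inside the RefSeq span of Akr1d1, which begins upstream of it at 37529978, so these bases are within the annotated gene:
Akr1d1, plus strand, chr6:37530143-37530172: ctcctcctagtgctcagttcttTTATGCAA

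Of the 10 enzymes, 2 rose and 2 fell in sEV livers: Cyp17a1 and Akr1d1 were higher, and Hsd3b5 and Hsd17b2 were lower. The test was limma on log2 signal scaled to each array's 75th percentile, with the brightest probe standing for its gene and an adjusted p of 0.05 over all 19447 genes tested. All 10 genes passed the filter on dim probes. Over all genes, 16.9% passed, 8.82% higher and 8.11% lower, so 4 of 10 stands beside a background of that size. The members' median log2 fold change was 0.13, beside 0.02 over all genes. The 3 sEV livers lay entirely on 1 side of the 3 control livers for 7 of the 10 enzymes, where 40.8% of all genes did so: above them for 4 (background 22.2%) and below them for 3 (background 18.6%). When arrays were scaled to their median instead, higher calls made up 40.5% of all calls in place of 52.1%, and Akr1d1 no longer passed.

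**Figure D1:**
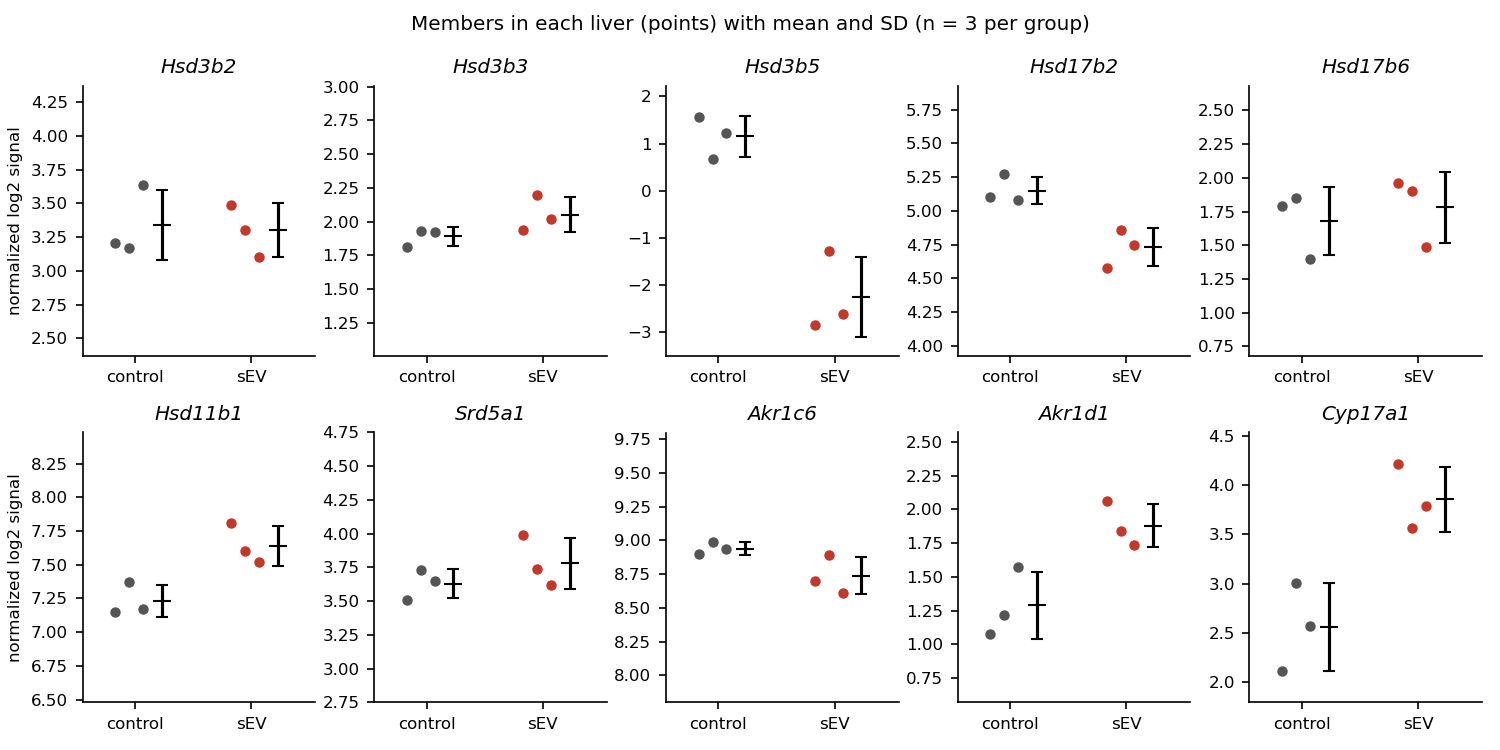
Normalized log2 signal (processed signal relative to the array's 75th percentile, on a log2 scale) of the brightest probe of each of the 10 genes, with 1 point per liver (grey control, red sEV) and the mean and SD of 3 livers as a bar; each panel has its own scale. Hsd3b5 and Cyp17a1 show the widest gaps between groups, and Hsd3b2, Hsd17b6 and Srd5a1 overlap.

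Hsd3b5, a ketosteroid reductase of liver, had the largest change of the 10. Its normalized log2 signal was 1.56, 0.68 and 1.22 in control livers 1 to 3 and -2.85, -1.29 and -2.63 in sEV livers 1 to 3. Every sEV liver lay below every control liver, with sEV 2 the highest of its group and control 2 the lowest. Before scaling, the probe's processed signal was 1496, 707.5 and 1144 in controls and 58.82, 164 and 66.76 in sEV livers, and it was well above background on all arrays. The mean fell from 1.15 ± 0.44 (SD, n = 3) to -2.26 ± 0.84 (SD, n = 3). That is a log2 fold change of -3.41 ± 0.44 (SE; 95% interval -4.47 to -2.35), a 10.6-fold difference (limma adjusted p = 0.00718). By size of fold change it ranked 63 among the 19447 genes. The call held under all 18 other settings, with log2 fold changes between -4.00 and -2.68 and adjusted p between 0.00125 and 0.0328.

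On the single slide, row 1 held the 3 controls and sEV 1, and row 2 held sEV 2 and sEV 3. For Hsd3b5 the value with slide row as a block was -4.00 (adjusted p = 0.0324 by limma), and within row 1, which sets the 3 controls against sEV 1 alone, it was also -4.00 (0.0143). Both values take the group difference from 1 sEV array, sEV 1. The smallest change, -2.68, came with normexp background correction. In whole-liver RNA, fewer cells of a type and less RNA per cell cannot be told apart.

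The other 3-beta enzymes of the list did not pass. Hsd3b2, a dehydrogenase-isomerase, was measured by 3 probes, and the brightest gave 3.21, 3.17 and 3.64 in controls and 3.49, 3.30 and 3.10 in sEV livers. The groups overlapped, with a log2 fold change of -0.04 ± 0.16 (SE; 95% interval -0.44 to 0.36; limma adjusted p = 0.891). The remaining Hsd3b2 probes gave 0.17 ± 0.10 and -0.12 ± 0.12, with adjusted p of 0.300 and 0.539 over all probes. Hsd3b3, another dehydrogenase-isomerase, gave 1.81, 1.93 and 1.92 in controls and 1.94, 2.20 and 2.02 in sEV livers. The sEV livers lay just above the controls, and the difference of 0.16 ± 0.10 (95% interval -0.07 to 0.40) did not pass (limma adjusted p = 0.289). The intervals of Hsd3b2 and Hsd3b3 do not reach the interval of Hsd3b5.

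The Hsd3b genes lie on chromosome 3 in the order Hsd3b4, Hsd3b5, Hsd3b2, Hsd3b3, Hsd3b6 and Hsd3b1, with the gene model Gm10681 between Hsd3b4 and Hsd3b5 and with Hao2 after Hsd3b1 (GRCm38.p6). Hsd3b5 spans 98618636 to 98645534, Hsd3b2 98711107 to 98724543 and Hsd3b3 98741476 to 98764540. Hsd3b1, the main isoform of adrenal and gonad, fell by 2.27 ± 0.27 (limma adjusted p = 0.00538), but its second probe gave -0.34 ± 0.15 (adjusted p = 0.183 over all probes). With normexp background correction the brightest Hsd3b1 probe gave -1.18 (0.00404), and the mean of both probes was -1.31 (0.0073). Within slide row 1 the brightest probe gave -2.37 and no longer passed (0.0661).

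Hsd3b4 was well above background on 3 control and 0 sEV arrays. It was at least 2.29-fold lower (limma adjusted p = 0.0199), with a fitted log2 fold change of -1.90 ± 0.35. This is the probe that shares the run of 23 bases with the Hsd3b5 probe. Its control values were -2.24, -3.69 and -3.17, in the same order over the control livers as those of Hsd3b5, and the other Hsd3b4 probes, 2 in number, were well above background on 0 arrays. How much Hsd3b5 RNA the Hsd3b4 probe binds was not tested. The Hsd3b4 call ended without control 3 or sEV 3 (lowest adjusted p 0.0504), and with slide row as a block (-1.82, 0.136). With normexp background correction its log2 fold change was -0.52 and did not pass (0.0528), so the bound holds only for the scaling used here. Hsd3b6, between Hsd3b3 and Hsd3b1, gave 0.15 ± 0.13 (adjusted p = 0.474).

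**Figure D2:**
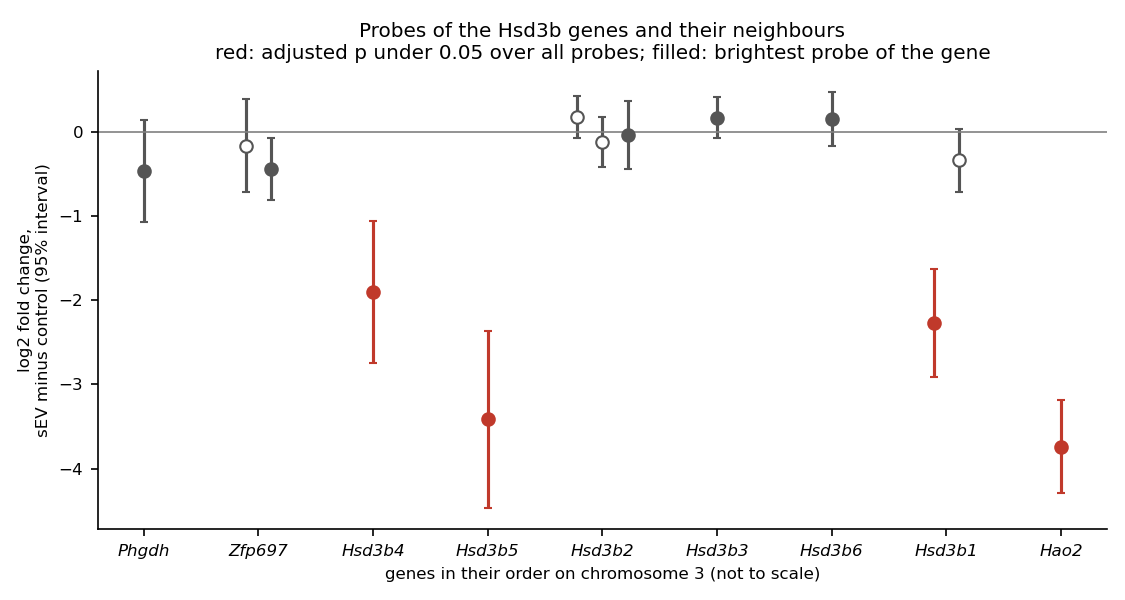
Log2 fold change (sEV minus control) with its 95% interval for each probe that passed the filter, for the Hsd3b genes and their neighbours in chromosomal order, not to scale; red marks an adjusted p under 0.05 over all probes and filled points the brightest probe. Hsd3b5, Hsd3b4, 1 Hsd3b1 probe and Hao2 lie low, while Hsd3b2, Hsd3b3 and Hsd3b6 lie near 0.

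Cyp17a1, which hydroxylates pregnenolone and progesterone and cleaves the side chain to give androgens, rose in sEV livers. Its normalized log2 signal was 2.11, 3.01 and 2.57 in control livers 1 to 3 and 4.22, 3.57 and 3.79 in sEV livers 1 to 3. The groups did not overlap, and sEV 1 was the highest and control 1 the lowest of all. The mean rose from 2.56 ± 0.45 (SD, n = 3) to 3.86 ± 0.33 (SD, n = 3), a log2 fold change of 1.30 ± 0.26 (SE; 95% interval 0.66 to 1.94) or 2.46-fold (limma adjusted p = 0.0245). The call ended without control 1 (1.07, adjusted p = 0.0622), control 3 (0.0693), sEV 1 (1.12, 0.0506) or sEV 3 (0.0643). With slide row as a block the value was 1.66 and did not pass (0.0681), and within row 1 it was also 1.66 (0.0924). Blocking by the replicate number gave an adjusted p of 0.0697.

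Cyp17a1 is best known from adrenal and gonad, and the other defining genes of those glands were read beside it. Of 11 listed, Cyp11a1, Cyp11b1, Cyp11b2 and Cyp19a1 were well above background on 0 arrays. Of the 7 tested, Akr1b7 rose, Hsd3b1 fell and 5 did not pass. Their mean normalized log2 signal ran from -0.96 to -0.61 in controls and from -0.76 to -0.54 in sEV livers.

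Cytochrome P450 enzymes need electrons from partner proteins. Of 8 such genes, 1 rose, 0 fell and 7 did not pass (median log2 fold change 0.06). The one that rose was Por, the reductase that feeds the microsomal P450 enzymes, at 5.23, 5.50 and 5.96 in controls and 6.53, 6.29 and 6.66 in sEV livers. Its difference was 0.93 ± 0.20 (limma adjusted p = 0.0287). It passed without control 3, and leaving out any of the other 5 arrays ended the call (adjusted p up to 0.0870), as did slide row as a block (0.156). Cyb5a, which favours the side chain cleavage by Cyp17a1, gave 0.12 (adjusted p = 0.421).

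Of the 17-beta enzymes, Hsd17b2 fell and Hsd17b6 did not pass. Hsd17b2 oxidises oestradiol to oestrone and testosterone to androstenedione, and so lowers the level of active sex steroids. Its normalized log2 signal was 5.10, 5.27 and 5.08 in controls and 4.58, 4.86 and 4.75 in sEV livers, with no overlap and with sEV 1 the lowest. The mean fell from 5.15 ± 0.10 (SD, n = 3) to 4.73 ± 0.14 (SD, n = 3). The log2 fold change of -0.42 ± 0.11 (SE; 95% interval -0.67 to -0.16) put sEV livers at 75% of the control level (limma adjusted p = 0.0443). This call lay near the threshold: over all probes rather than genes the adjusted p was 0.0515, and leaving out any 1 of the 6 arrays ended it (0.0624 to 0.114). Blocked by slide row the value was -0.56 (0.0882), within row 1 the adjusted p was 0.124, and with the replicate number as a block it was 0.0554.

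Hsd17b6, an oxidoreductase that acts on androstanediols, gave 1.79, 1.85 and 1.40 in controls and 1.96, 1.90 and 1.49 in sEV livers. The third liver of each group was its lowest, and the groups overlapped because sEV 3 lay below control 1 and control 2. The difference was 0.10 ± 0.18 (95% interval -0.33 to 0.53, limma adjusted p = 0.722). Its sign turned without control 3 (-0.04). Hsd17b2 lies on chromosome 8 (117700982 to 117759030) and Hsd17b6 on chromosome 10 (127990931 to 128007648).

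Outside the members, 15 other hydroxysteroid dehydrogenases were tested, and 1 rose, 3 fell and the other 11 missed the threshold (median log2 fold change 0.07). The falls were Hsd3b1, Hsd3b4 and Hsd17b7, which acts in cholesterol synthesis as well as on oestrone. Hsd17b7 was 4.63, 4.24 and 4.22 in controls and 2.80, 3.18 and 3.58 in sEV livers, a difference of -1.18 ± 0.22 (limma adjusted p = 0.0201). It did not pass without control 1, control 2 or sEV 2 (0.0549 to 0.0639), nor with the mean of all probes (-0.84, 0.107), but it passed with slide row as a block (-1.57, 0.0372). The other oxidative or reductive 17-beta genes tested lay between -0.09 and 0.90, with Hsd17b3, the testis enzyme that makes testosterone, at 0.90 (adjusted p = 0.0793).

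Akr1d1, which reduces the A ring of bile acid precursors and of hormones to the 5-beta form, rose. Its brighter probe gave 1.08, 1.22 and 1.57 in controls and 2.06, 1.84 and 1.74 in sEV livers, without overlap. The log2 fold change was 0.59 ± 0.15 (SE; 95% interval 0.22 to 0.96) or 1.51-fold (limma adjusted p = 0.0469). The dimmer probe gave -0.34, -0.04 and -0.14 in controls and 0.37, 0.15 and 0.05 in sEV livers, also without overlap, and its 0.37 ± 0.13 did not pass (adjusted p = 0.106 over all probes, where the brighter probe had 0.0526). The mean of both probes gave 0.48 (adjusted p = 0.0564). The Akr1d1 call held without control 3 (0.73, 0.0360) and ended when any of the other 5 arrays was left out (0.0786 to 0.128). Blocking by slide row (0.77, 0.116) ended it too, as did the fits within row 1 (0.153), with the replicate number as a block (0.103), with array weights (0.0775) and with median scaling (0.0878).

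Srd5a1, which reduces testosterone to dihydrotestosterone and clears other hormones of this ring type, gave a call from 1 of its probes and none from its brightest. The brightest probe gave 3.51, 3.73 and 3.65 in controls and 3.99, 3.74 and 3.62 in sEV livers. The groups overlapped, and the difference was 0.16 ± 0.12 (95% interval -0.14 to 0.45; limma adjusted p = 0.421). The probe designed on a separate cDNA, A_52_P577084, gave -1.71, -1.37 and -1.44 in controls and -2.44, -2.79 and -3.38 in sEV livers, without overlap. Its difference was -1.37 ± 0.24, a 2.58-fold fall (limma adjusted p = 0.0196 over all probes). The file places this probe 37033 bases from the brightest one, and the RefSeq gene is 38037 bases long, so the pair lies toward opposite ends of the gene. The RIKEN clone in its description, 4930435F02, is listed by RefSeq as a synonym of Srd5a1.

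The second Srd5a1 result depended on single arrays and on the row. Without control 1, control 2, control 3 or sEV 2 the adjusted p was 0.0526, 0.0662, 0.0605 and 0.0509. Blocked by slide row the value was -0.93 (0.136), within row 1 the adjusted p was 0.0905, and with normexp background correction the value was -0.71 (0.00736). Averaging the Srd5a1 probes that passed the filter gave -0.61 (0.0692), where the brightest probe gave 0.16. Which transcript each probe reports was not tested.

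Akr1c6, the mouse enzyme that reduces androstenedione to testosterone, was 8.90, 8.99 and 8.94 in controls and 8.70, 8.89 and 8.61 in sEV livers. The sEV livers lay below the controls, but the difference of -0.20 ± 0.10 (95% interval -0.44 to 0.03) did not pass (limma adjusted p = 0.202). Akr1c6 passed under quantile normalization (-0.43, 0.0435) and in the deposited value table (-0.42, 0.0462).

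**Figure D3:**
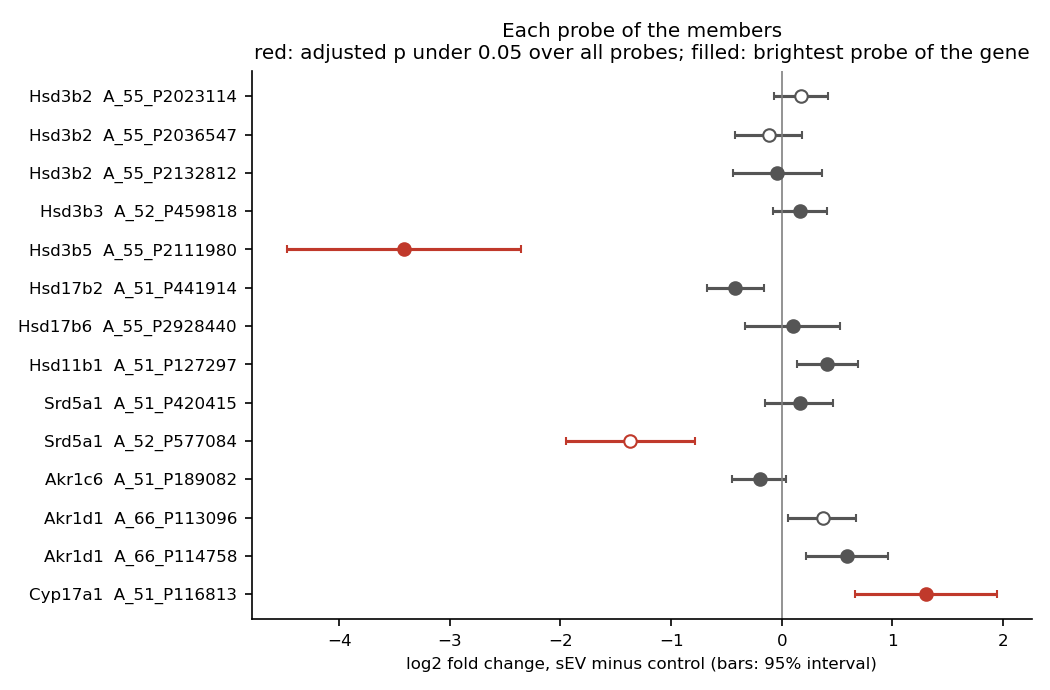
Log2 fold change (sEV minus control) with its 95% interval for the 14 probes of the 10 genes that passed the filter; red marks an adjusted p under 0.05 over all probes and filled points the brightest probe of each gene. Only Hsd3b5, Cyp17a1 and the second Srd5a1 probe pass at this level, and the interval of the brightest Srd5a1 probe spans 0.

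Counted by probe, 14 of the 15 probes passed the filter and 3 passed the test (Hsd3b5, the Srd5a1 probe A_52_P577084 and Cyp17a1), where 14.1% of all 28766 probes did. The 1 that rose and the 2 that fell stand beside 7.45% and 6.7% of all probes. Among 16 other steroid reductases and relatives of the retinol dehydrogenases, 3 rose, 3 fell and 10 did not pass (median 0.06). Akr1b7, an aldo-keto reductase that removes an aldehyde made in steroid synthesis, rose from -0.75, -0.69 and -0.57 to 1.21, 0.74 and 1.02, by 1.66 ± 0.13 (limma adjusted p = 0.00169). Rdh5 and Rdh9 fell by 0.54 ± 0.08 (0.0119) and 0.59 ± 0.10 (0.0138), but the mean of all Rdh9 probes gave -0.21 and did not pass (0.143). Rdh1 rose by 0.90 ± 0.20 (0.0295), and leaving out any array except sEV 1 ended that call (adjusted p 0.0687 to 0.0950), while normexp background correction gave 0.57 (0.0223). Srd5a2, the second 5-alpha reductase, gave 0.08 (adjusted p = 0.682). Of the 6 calls in this list 1 remained with slide row as a block, that of Akr1b7 (1.88, 0.00976).

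Hsd11b1 regenerates active glucocorticoid from its inactive ketone form and is abundant in hepatocytes. It gave 7.15, 7.37 and 7.17 in controls and 7.81, 7.60 and 7.52 in sEV livers. All sEV livers lay above all controls, with sEV 1 the highest. The log2 fold change of 0.41 ± 0.11 (SE; 95% interval 0.14 to 0.68), or 1.33-fold, missed the threshold (limma adjusted p = 0.0525). It passed under 4 of the 18 other settings: normexp background correction (0.0167), trend and robust variance (0.0225), a filter on all 6 arrays (0.0413) and array weights (0.0438). The change was smaller with quantile normalization (0.24, 0.185), in the deposited value table (0.24, 0.188) and with median scaling (0.36, 0.138), and did not pass there. The value with slide row as a block was 0.58 (0.0896).

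H6pd, which makes the NADPH that Hsd11b1 uses in the endoplasmic reticulum, passed. Its signal was 5.16, 5.28 and 5.09 in controls and 5.81, 6.03 and 6.16 in sEV livers, a rise of 0.82 ± 0.12 (limma adjusted p = 0.00902). Blocked by slide row it was 0.63 and did not pass (0.0699). Hsd11b2, which inactivates glucocorticoid, was well above background on 0 arrays. Serpina6, the corticosteroid-binding globulin of blood, fell from 7.11, 7.49 and 7.33 to 6.65, 6.64 and 6.31, by 0.78 ± 0.14 (0.0198). The Serpina6 call ended without control 2 or control 3 (0.0598 and 0.0604 as the lower and higher adjusted p) and with slide row as a block (-0.66, 0.150).

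Among 10 genes known as targets of the glucocorticoid receptor, 5 rose, 0 fell and 5 did not pass, and their median log2 fold change was 0.50. Tat, tyrosine aminotransferase, rose by 1.19 ± 0.12 (limma adjusted p = 0.00341), Fkbp5, a chaperone that feeds back on the receptor, by 1.0 ± 0.16 (0.0129), Pck1, of gluconeogenesis, by 0.79 ± 0.09 (0.00484), and Klf9 by 0.62 ± 0.10 (0.0142). The sEV livers lay above the controls for each of these 4. Tsc22d3, Per1 and Dusp1, also targets, gave 0.00, -0.01 and -0.21 and did not pass. Of the 5 calls, 3 remained when slide row was a block. The receptor gene itself, Nr3c1, gave -0.32 (adjusted p = 0.0802).

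Of 7 steroid receptors and carriers tested, 2 fell. Nr3c2, the mineralocorticoid receptor, fell by 0.95 ± 0.17 (limma adjusted p = 0.0184), and Serpina6 is the other. Leaving out control 2, sEV 2 or sEV 3 ended the Nr3c2 call (0.0537 to 0.0618), as did slide row as a block (-0.74, 0.145).

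Further along the same routes, 15 steroid-hydroxylating P450 genes of liver were tested, of which 5 rose, 0 fell and 10 did not pass (median 0.23). Cyp2b10, the typical target of the receptor CAR, was 6.88, 7.09 and 7.21 in controls and 8.31, 8.22 and 8.08 in sEV livers, a rise of 1.15 ± 0.12 (limma adjusted p = 0.00365). Cyp3a13 rose by 0.96 ± 0.18 (0.0212), Cyp2b9 by 0.68 ± 0.12 (0.0177) and Cyp3a25 by 0.54 ± 0.10 (0.0201). Each of these 3 calls ended without control 1 or control 2, and those of Cyp2b9 and Cyp3a25 also without sEV 2 (0.0519 to 0.0650 over these). Blocking by slide row left Cyp2b10 alone of the 5 (1.25, 0.0269).

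Of 17 sulfotransferase, sulfatase and glucuronosyltransferase genes, 2 rose, 1 fell and 14 did not pass (median 0.05). Sult1e1, which sulfates oestrogens, was -3.37, -0.81 and -1.35 in controls and 3.17, 2.27 and 3.02 in sEV livers, a 25.4-fold rise (log2 fold change 4.67 ± 0.66, limma adjusted p = 0.00924), with 3.90 without control 1 and 5.18 without control 2. Blocked by slide row its value was 5.02 and did not pass (0.0633). Sult1d1 rose by 1.36 ± 0.17 (0.00709), and Sult2a5, a member of the hydroxysteroid sulfotransferase family, fell by 1.83 ± 0.26 (0.00976; with slide row as a block -1.61, 0.0896). All 7 Ugt2b genes tested lay between -0.08 and 0.08 and did not pass.

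Akr1d1 also acts in bile acid synthesis, where 4 of 10 other genes rose, 0 fell and 6 did not pass (median 0.36). Cyp27a1, which oxidises the sterol side chain, rose by 0.72 ± 0.08 (limma adjusted p = 0.00516). Cyp7a1, the rate-limiting enzyme, was -0.42, 0.50 and 1.32 in controls and 2.51, 2.46 and 1.78 in sEV livers, a rise of 1.78 ± 0.44 (0.0416). Nr0b2, its repressor, rose by 0.80 ± 0.20 (0.0406), and Baat, which conjugates bile acids, by 0.51 ± 0.11 (0.0295). For Cyp7a1, Nr0b2 and Baat, leaving out any 1 of 5 arrays ended the call (adjusted p 0.0601 to 0.120), with control 3, sEV 3 and sEV 1 as the respective exceptions. Median scaling ended the calls of Nr0b2 (0.067) and Baat (0.0573), the mean of all probes that of Baat (0.227), and array weights those of Cyp7a1 (0.0663) and Nr0b2 (0.0509). Trend and robust variance also ended the Cyp7a1 call (0.0542). Hsd3b7, the 3-beta enzyme of this route, gave 0.07 (adjusted p = 0.641). Blocking by slide row left 1 of the 4 calls, Cyp27a1.

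**Figure D4:**
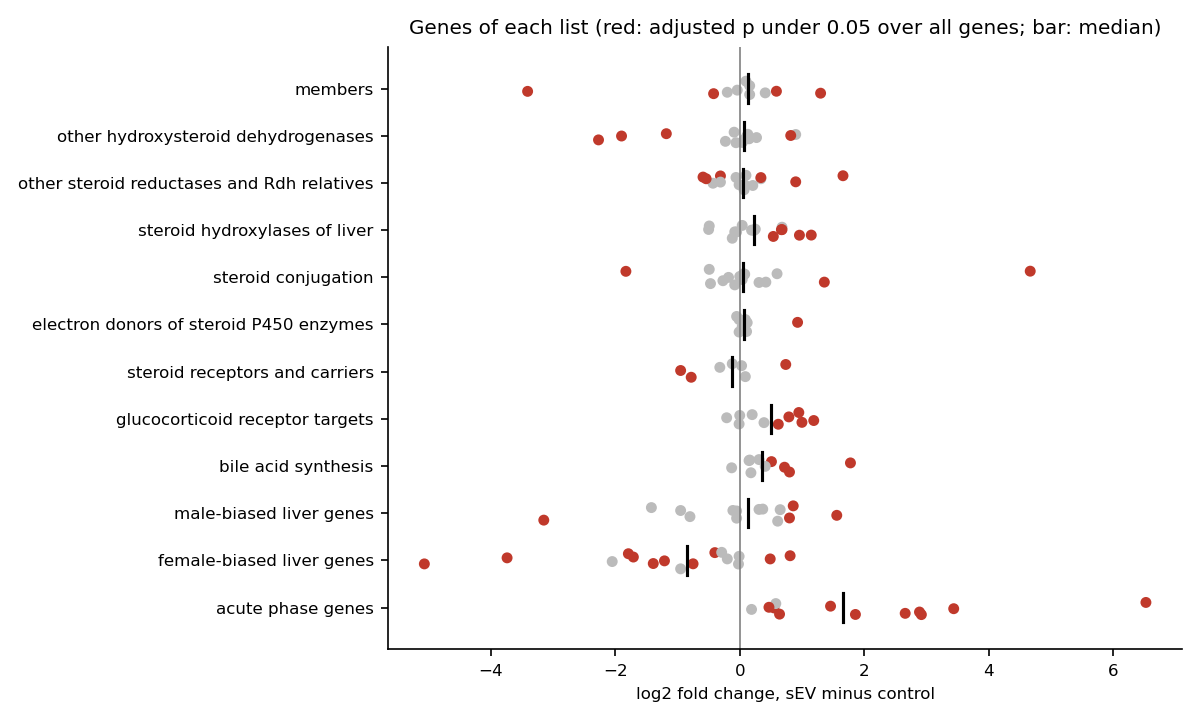
Log2 fold change (sEV minus control) of each tested gene of the 10 enzymes and of the 11 other lists, with 1 point per gene, red for an adjusted p under 0.05 over all genes, and the list's median as a bar. The medians of the other hydroxysteroid dehydrogenases, reductases, conjugation genes and electron donors lie between 0.05 and 0.07, those of the glucocorticoid receptor targets and bile acid genes at 0.50 and 0.36, and those of the female-biased and acute phase lists at -0.85 and 1.66.

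Several of the enzymes are known to differ between the sexes, so 2 lists of sex-biased liver genes were read beside them. Of 14 male-biased genes, 3 rose, 1 fell and 10 did not pass (median 0.13). Slco1a1, an organic anion transporter, fell by 3.15 ± 0.31 (limma adjusted p = 0.00336), from 2.22, 1.43 and 2.03 to -1.79, -0.77 and -1.20, with sEV 2 the highest of its group and control 2 the lowest of its own, as for Hsd3b5. Elovl3, a fatty acid elongase, rose by 1.56 ± 0.31 (0.0231), C6, of complement, by 0.86 ± 0.11 (0.00718) and Cyp2u1 by 0.80 ± 0.17 (0.0260). Leaving out control 1, control 3, sEV 1 or sEV 2 ended the Elovl3 call, and control 2 or any sEV array that of Cyp2u1 (adjusted p 0.0511 to 0.0771). Quantile normalization and the deposited value table gave 0.54 for Cyp2u1, which then did not pass (0.0653 and 0.0665), and the mean of its probes was -0.24 (0.361). Blocking by slide row left Slco1a1 alone of the 4.

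Of 16 female-biased genes, 2 rose, 8 fell and 6 missed the threshold (median -0.85). A1bg fell by 5.07 ± 0.26 (limma adjusted p = 0.000306), Hao2, the neighbour of the Hsd3b genes, by 3.74 ± 0.23 (0.000616), Cyp2c69 by 1.79 ± 0.12 (0.000942) and Cyp2c40 by 1.39 ± 0.13 (0.00248). Of the 10 calls, 6 remained with slide row as a block.

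Other cell types and states also differed between the groups, and their part in the results above was not tested. All 12 listed hepatocyte genes passed the filter, and 5 rose and 0 fell (mean normalized log2 signal 7.95 to 8.07 in controls and 8.33 to 8.48 in sEV livers). Periportal hepatocyte genes rose in 7 of 8 (5.67 to 6.07 and 6.59 to 6.70), and pericentral ones in 0 of 8 with 0 falling (3.8 to 4.13 and 4.06 to 4.19). Some genes stand in more than 1 list, so the counts overlap. Ass1 is in the hepatocyte and periportal lists, and the hepatocyte gene Tat and the periportal gene Pck1 are also among the glucocorticoid receptor targets. Acute phase genes rose in 10 of 12, and by moderated t the first 4 were Saa3 (6.53 ± 0.39, limma adjusted p = 0.00054), Orm2, Orm1 and Lcn2. Kupffer cell genes rose in 6 of 10 (2.0 to 2.49 and 2.70 to 2.88) and neutrophil genes in 6 of 12 (0.42 to 0.98 and 1.52 to 2.08). Dividing cell genes fell in 10 of 10 (0.72 to 0.99 and -3.23 to -2.64), erythroid precursor genes in 4 of 7 with 1 higher (0.53 to 1.02 and -0.64 to -0.18), and stellate cell genes in 5 of 10 (1.24 to 1.67 and 0.55 to 0.77). Cholangiocyte genes fell in 1 of 6 (-2.15 to -1.70 and -2.26 to -1.75), and of 9 sinusoidal endothelial genes none passed (1.11 to 1.58 and 1.07 to 1.44). Blocking by slide row left 10 of the 10 dividing cell calls, 3 of the 10 acute phase, 3 of the 5 hepatocyte, 2 of the 7 periportal and 2 of the 5 erythroid calls, and 0 of the 6 Kupffer cell, 6 neutrophil, 5 stellate cell and 1 cholangiocyte calls.

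On each array 49.9% to 54.7% of 59305 non-control spots were well above background, and the 75th percentile of processed signal ran from 440.1 to 506.4 for controls and from 401.5 to 424.0 for sEV livers. An exact test of 3 against 3 livers cannot give a p below 0.1, so single values were tested only in the fit over all genes, and precision is limited by the number of arrays.

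**Figure D5:**
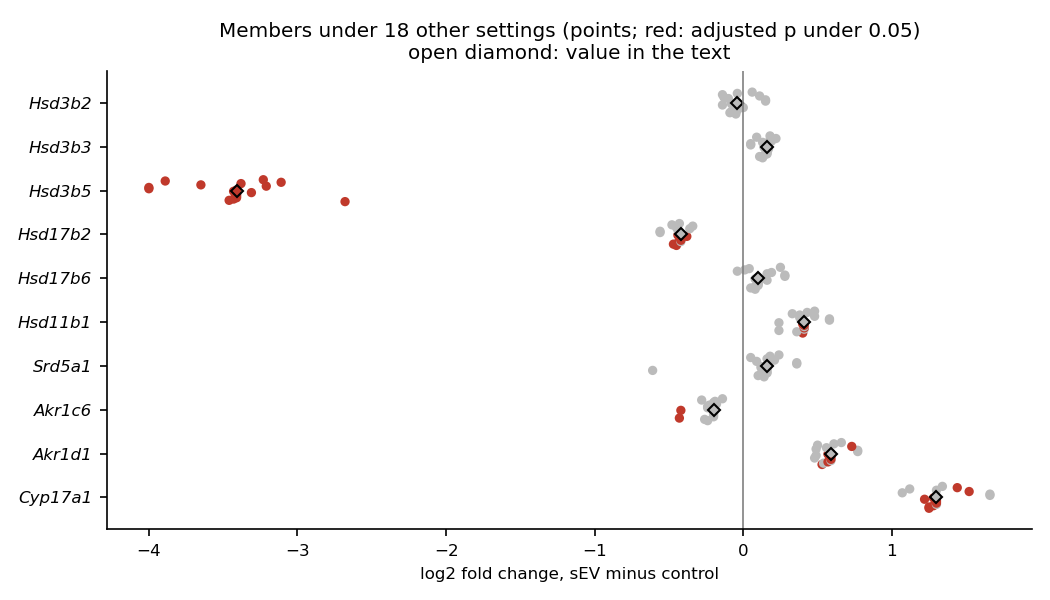
Log2 fold change (sEV minus control) of each of the 10 genes under 18 other settings of processing, fit or left-out array (points, red for an adjusted p under 0.05) and in the values given above (open diamonds). All points of Hsd3b5 are red and lie between -4.00 and -2.68, whereas those of Akr1d1, Hsd17b2 and Cyp17a1 keep their side of 0 but often miss the threshold.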

How the data were processed

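The authors deposited scanner files whose processed signal, an intensity, was background-subtracted and detrended within each array, per the file headers. The submitters' processing notes name Agilent Feature Extraction 10.7.1.1. A deposited value table holds log2 values. Its columns correlated with log2 of the processed signal at 0.9995 or more, and each has a median of 4.50, so that it served as an alternative; its scaling is not given in the sources used.

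Values are log2 processed signals less that of the array's 75th percentile. Control and outlier-flagged spots were dropped, and spots of a probe averaged. A probe was kept if well above background on 3 or more of 6 arrays, and the brightest stood for its gene. The mean of all probes, used as another setting, was taken over the probes kept. Groups were compared with limma 3.58.1 (R 4.3.3) with Benjamini-Hochberg adjustment, and the ± after a difference is its standard error. The fit was also run on simulated data drawn from its own model without a slide row effect, which cannot show how well it suits these arrays. A gene dim in 1 group has a bound, taken against the lowest signal well above background. The members and lists were chosen with earlier results of these data known. From each list up to 4 genes past the threshold, by moderated t, were named, other genes by role after their values were seen. Same-numbered samples deviated together at 0.02, 0.16 and 0.02, so numbers were not taken as pairs. Arrays shared 1 slide and 1 scan. Local alignments used biopython 1.88. Each array is 1 liver, and the design text says that the 3 sEV mice were picked at random. Some genes are not reported here.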

Additional observations from a re-analysis of the deposited data

How the results depend on the processing

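The counts depended on the filter, on the slide row and on single arrays. Without a filter on dim probes 801 genes passed in all, against 3294; of the members 0 were called higher and 1 lower, against 2 and 2, and 1 member probe passed, against 3. The listed genes outside the members then gave 15 higher and 9 lower, against 37 and 18. Blocked by slide row, 721 genes passed, with 0 members higher, 1 lower and 1 member probe, and 12 listed genes were higher and 9 lower. Within row 1 the same counts were 608, 0, 1, 1, 10 and 10. With the replicate block 2176 genes passed, 0 members higher and 1 lower (Hsd3b5), which is given here although the numbers were not taken as pairs. Median scaling and the mean of all probes each left 1 member higher. Member probes called were 7 with normexp, 6 with a filter on all 6 arrays and 6 with trend and robust variance. Leaving out 1 array at a time gave 1329 to 2761 genes, 0 to 1 members higher, 1 to 1 lower, 1 to 2 member probes, and 21 to 31 higher and 12 to 19 lower among the listed genes. Signs turned for Hsd3b2, never called (-0.14 to 0.11 over the left-out arrays, 0.00 with the mean of probes, 0.15 with slide row as a block and within row 1, 0.11 without control 3 and 0.06 without sEV 3), for Hsd17b6 (-0.04 without control 3, otherwise up to 0.25 with an array left out), for Srd5a1 (-0.61) and for Cyp2u1 (-0.24), the last 2 with the mean of all probes. The cause of these shifts was not tested, except that the blocked and within-row values rest on 1 sEV array. Slide row and the replicate number were not given as batches by the labels.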

Other observations

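Genes beside the Hsd3b cluster were looked at after the values of the cluster were seen. Zfp697, which lies before Hsd3b4, gave a log2 fold change of -0.44 ± 0.15 by its brightest probe (limma adjusted p = 0.0999 over all probes), and Phgdh, of serine synthesis, before it gave -0.47 ± 0.25 (0.258). Hao2, after Hsd3b1, had 3.32, 3.17 and 3.33 in control livers and -0.15, -0.24 and -1.01 in sEV livers. Genes on both sides of Hsd3b2, Hsd3b3 and Hsd3b6 were thus lower by fitted value, while those 3 genes did not pass. In the promoter windows of the cluster, TTCNNNGAA stood once before Hsd3b1, 122 bases from its start, and AGAACA stood before Hsd3b4 and 2 times before Hsd3b6.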
